A study of Nicotiana tabacum with 12 samples.

Results

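In tobacco (Nicotiana tabacum) roots, 92 gene models had their lowest messenger RNA abundance in the libraries titled WTR. The group means of the libraries titled TWTR, CR and TCR lay within a set limit of one another. The 92 are 0.364% of the 25273 models in the deposited table. They were chosen on the measured values themselves. With L as the mean of log2(FPKM + 1) over the 3 libraries of a group, a model had to have a mean of at least 1 and under 1000 FPKM over all 12 libraries. FPKM is the fragment count scaled to transcript length and library size. The highest of its 3 WTR values had to lie below the lowest of the 9 other values, L in WTR had to be at least 1 below the smallest other L, and the 3 other L values had to lie within 1 of each other. The low WTR level and the closeness of the other groups are therefore criteria of choice and not results. No test of the low WTR level is given.

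The series was deposited under a title on a tobacco Ntlht1 mutation and tolerance of low nitrogen. Every sample is labelled as root and carries the same treatment note, which speaks of hydroponic culture of the NtLHT1 mutant in LN solution (low nitrogen, by the series title) for 15 days. The titles code 4 groups of 3 libraries as WTR, TWTR, CR and TCR and do not spell the codes out. No genotype, nitrogen supply or age is given here for any of them, and the kind of mutation and the number of mutant lines were not given in the sources used here. The labels do not state whether replicates were separate plants, so p-values reflect only how far these libraries scatter, and that scatter may be technical. LHT1 is a plasma membrane transporter of amino acids, known from Arabidopsis to take up amino acids from the soil into root cells and to serve leaf tissue as well. Roots take up nitrogen mainly as nitrate and ammonium, with amino acids as an organic source, and nitrogen shortage is known to alter the transcripts of transport and assimilation genes in roots. Tobacco is an allotetraploid, so many genes are present as pairs of similar copies from its ancestral species.

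Each identifier names a scaffold and a model on it, and no gene names come with the table. None of the 92 members (0) was found in the RefSeq gene table used, so no function is attached to any model below and no sequence is shown. The root label could not be checked against marker genes, nor the mutation against the level of NtLHT1, for the same reason. Levels of different models may be compared on the FPKM scale, which divides by length. Reads shared by near-identical copies may be split between models, and the table keeps no trace of it.

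The libraries were of similar relative depth apart from CR replicate 2, at 1.83 times that of CR replicate 1. The other 10 lay between 0.913 and 1.15 times, and the absolute depth is unknown. WTR libraries had 19399 to 19490 models at 1 FPKM or more against 19531 to 19802 in the other 9. Over the 19929 models tested, the median log2(FPKM + 1) was 4.11 to 4.12 in WTR libraries and 4.14 to 4.19 in the others, a shift that is small beside the gap that defines the members. It can still carry members whose gap is near the limit across it. With libraries scaled by the median of ratios, 80 of the 92 members still met the rule. With TPM, which is FPKM scaled to the same sum in each library, 77 did, and with quantile normalization 57 did.

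The members held 0.142% to 0.148% of the summed FPKM in the 3 WTR libraries and 0.361% to 0.451% in the other 9. In FPKM, their sum was 1616 ± 56.6 in WTR, 4876 ± 172 in TWTR, 4221 ± 143 in CR and 4368 ± 63.4 in TCR (SD, n = 3 each). In bulk root tissue, fewer cells of a type and less RNA per cell cannot be told apart. The median member stood at 6.04 FPKM in WTR, 17.5 in TWTR, 17.6 in CR and 19.5 in TCR. Among the 90 members with a WTR mean above 0, the median ratio to WTR was 3.44 for TWTR, 2.96 for CR and 3.39 for TCR. The middle 50% of the ratios, from the lower to the upper quartile, ran from 2.90 to 4.38 for TWTR, from 2.47 to 4.24 for CR and from 2.55 to 4.69 for TCR.

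**Figure D1:**
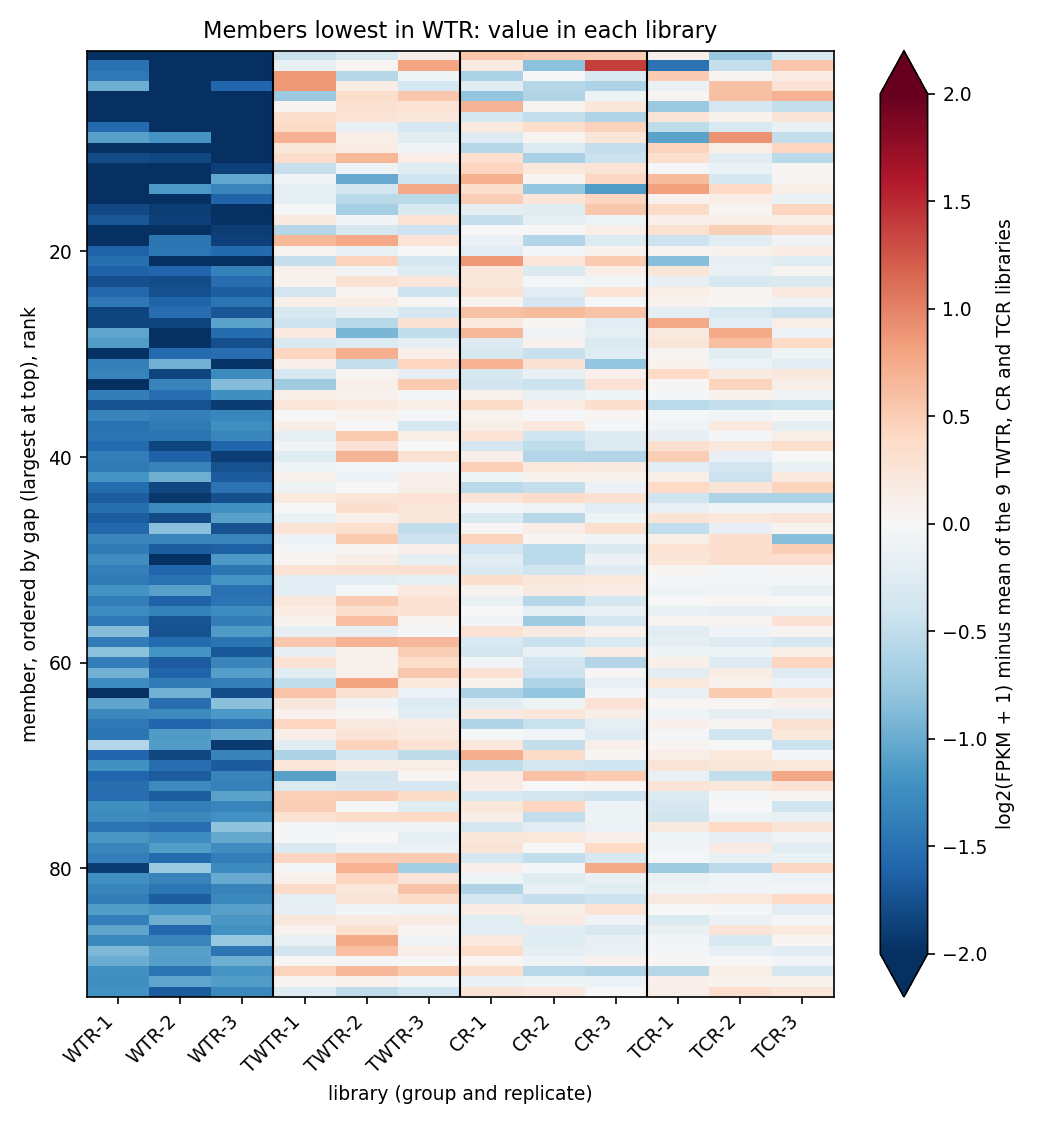
Each row is 1 of the 92 members, ordered by the gap between WTR and the lowest other group, and each column 1 library; colour gives log2(FPKM + 1) minus the mean of the 9 TWTR, CR and TCR libraries, cut off at -2 and 2. The 3 WTR columns are blue throughout, as the rule requires, and the other 9 are mostly pale: 85.5% of their 828 cells lie within 0.5 of the mean, and 6 lie beyond 1, the farthest at -1.48 and 1.38.

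All 92 members passed the filter on low values, because the rule itself asks for a mean of at least 1 FPKM. They spanned the range of levels much as all tested models did. The share with a mean of 1 to 5 FPKM was 19.6% of members and 21.3% of tested models, that of 5 to 20 FPKM was 38.0% and 33.1%, that of 20 to 100 FPKM was 34.8% and 34.3%, and that of 100 to 1000 FPKM was 7.61% and 10.8%. The member median of the 12-library mean was 14.1 FPKM, beside 17.1 for tested models. In WTR, 14 members were listed at 0 in at least 1 library, and 2 of these in all 3 libraries. No member (0 of 92) was at 0 in any of the other 9 libraries, as the rule requires.

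Most gaps lay close to the limit of 1. The gap between L in WTR and the smallest other L had a median of 1.19 and quartiles of 1.08 and 1.42 on the log2(FPKM + 1) scale. It reached at least 1.5 in 19 members, at least 2 in 5 and at least 3 in 1. In 39 members the lowest of the 9 other libraries had at least 2 times the FPKM of the highest WTR library. Separation of all 3 WTR libraries from the other 9 was found in 8.49% of tested models (1692 of 19929), so most models below all others in WTR lacked the gap or the closeness of the other groups.

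**Figure D2:**
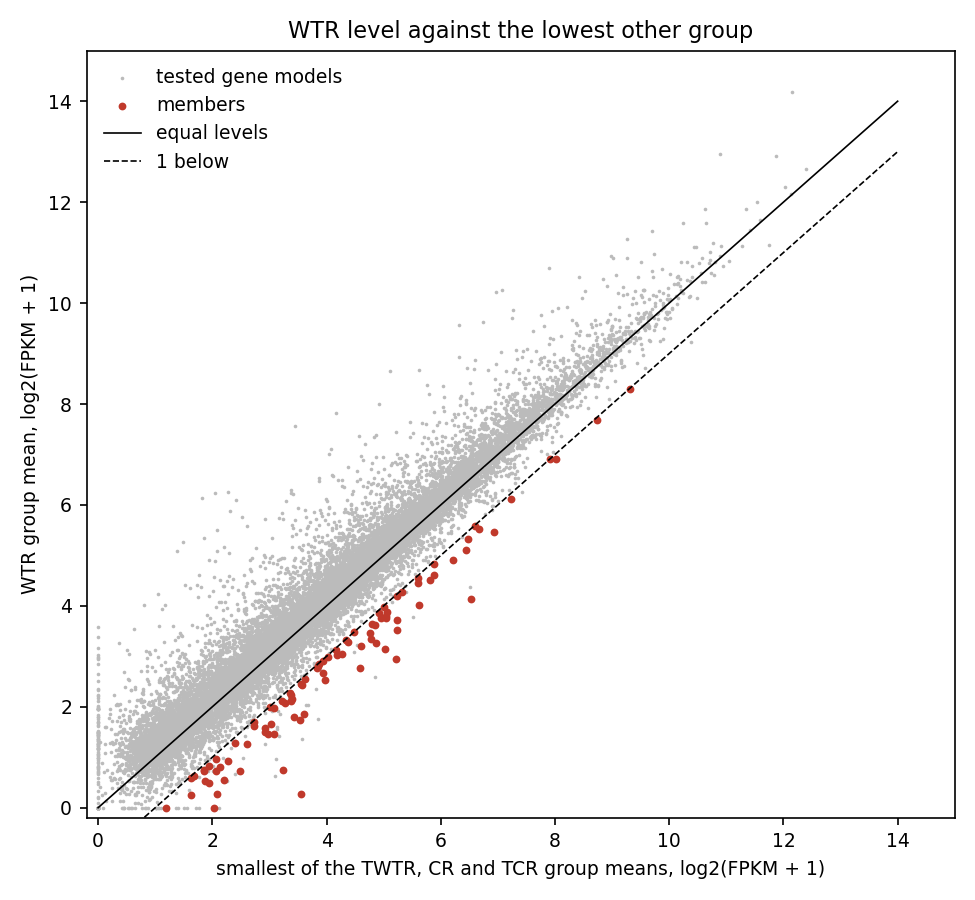
Each point is 1 of 19929 tested gene models, with the smallest of the TWTR, CR and TCR group means on the x axis and the WTR group mean on the y axis, both as log2(FPKM + 1); members are red. The members lie on or below the dashed line 1 unit under equality, most of them within 1.42 units of equality, and are spread along the whole range up to about 9 on the x axis.

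The 2 members with the largest gaps averaged 10.7 and 11.03 FPKM over the 12 libraries. Nitab4.5_0000418g0050, with a gap of 3.27, was at 0, 0.35 and 0.31 FPKM in WTR. It stood at 9.71, 10.8 and 14.6 FPKM in TWTR, at 20.4, 19.9 and 19.8 in CR and at 14.5, 7.66 and 10.8 in TCR. All 9 other values lay far above the WTR values, and every CR value lay above those of TWTR and TCR. Nitab4.5_0000297g0240, with a gap of 2.51, was at 3.65, 0 and 0 FPKM in WTR. It was at 10.8, 12.5 and 21.6 FPKM in TWTR, at 13.9, 6.45 and 33.1 in CR and at 3.7, 8.44 and 18.2 in TCR. Here WTR replicate 1 nearly reached TCR replicate 1, so the separation was narrow and the other 3 groups overlapped widely. The size of both gaps depended on the pseudocount: values of 0.1 and 5 gave 5.35 and 1.59 for Nitab4.5_0000418g0050 and 4.65 and 1.22 for Nitab4.5_0000297g0240.

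The 2 members with the highest means had gaps close to 1. Nitab4.5_0000106g0170, the most abundant, was at 297, 333 and 318 FPKM in WTR libraries, at 721, 735 and 681 in TWTR, at 629, 643 and 638 in CR and at 746, 728 and 731 in TCR. The CR values lay below every TWTR and TCR value, and the replicates of each group lay close together. Nitab4.5_0005283g0070 was at 216, 197 and 202 FPKM in WTR libraries, at 709.8, 492 and 428 in TWTR, at 596, 679 and 468 in CR and at 399, 506 and 382.5 in TCR. TWTR, CR and TCR overlapped, and their replicates were more spread than those of WTR.

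In other members the TWTR, CR and TCR levels nearly coincided. Nitab4.5_0000804g0160 was at 122, 112 and 123 FPKM in WTR libraries, at 247, 236 and 241 in TWTR, at 248, 228 and 257 in CR and at 246, 245 and 233 in TCR. Its 3 other L values spanned 0.018, the smallest span of all members. Nitab4.5_0000074g0100 was at 29.1, 28.4 and 29.8 FPKM in WTR libraries, at 74.4, 78.7 and 72.9 in TWTR, at 79.0, 72.6 and 76.7 in CR and at 72.9, 72.0 and 74.4 in TCR. Its span was 0.056. In both models the 3 groups overlapped and none of their differences passed the limma test (adjusted p from 0.410 to 0.981). The span was under 0.1 in 4 members, under 0.25 in 13 and under 0.5 in 42, with a median of 0.56 beside the limit of 1.

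The 2 members listed at 0 in every WTR library were low elsewhere too. Nitab4.5_0000559g0050 was at 2.46, 6.36 and 7.39 FPKM in TWTR, at 2.33, 2.81 and 4.37 in CR and at 4.99, 7.77 and 8.35 in TCR. Nitab4.5_0001190g0060 was at 1.31, 2.59 and 0.88 FPKM in TWTR, at 2.38, 1.53 and 1.38 in CR and at 1.70, 2.14 and 0.38 in TCR. At values this low, in a table without counts, no ratio to WTR is given.

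**Figure D3:**
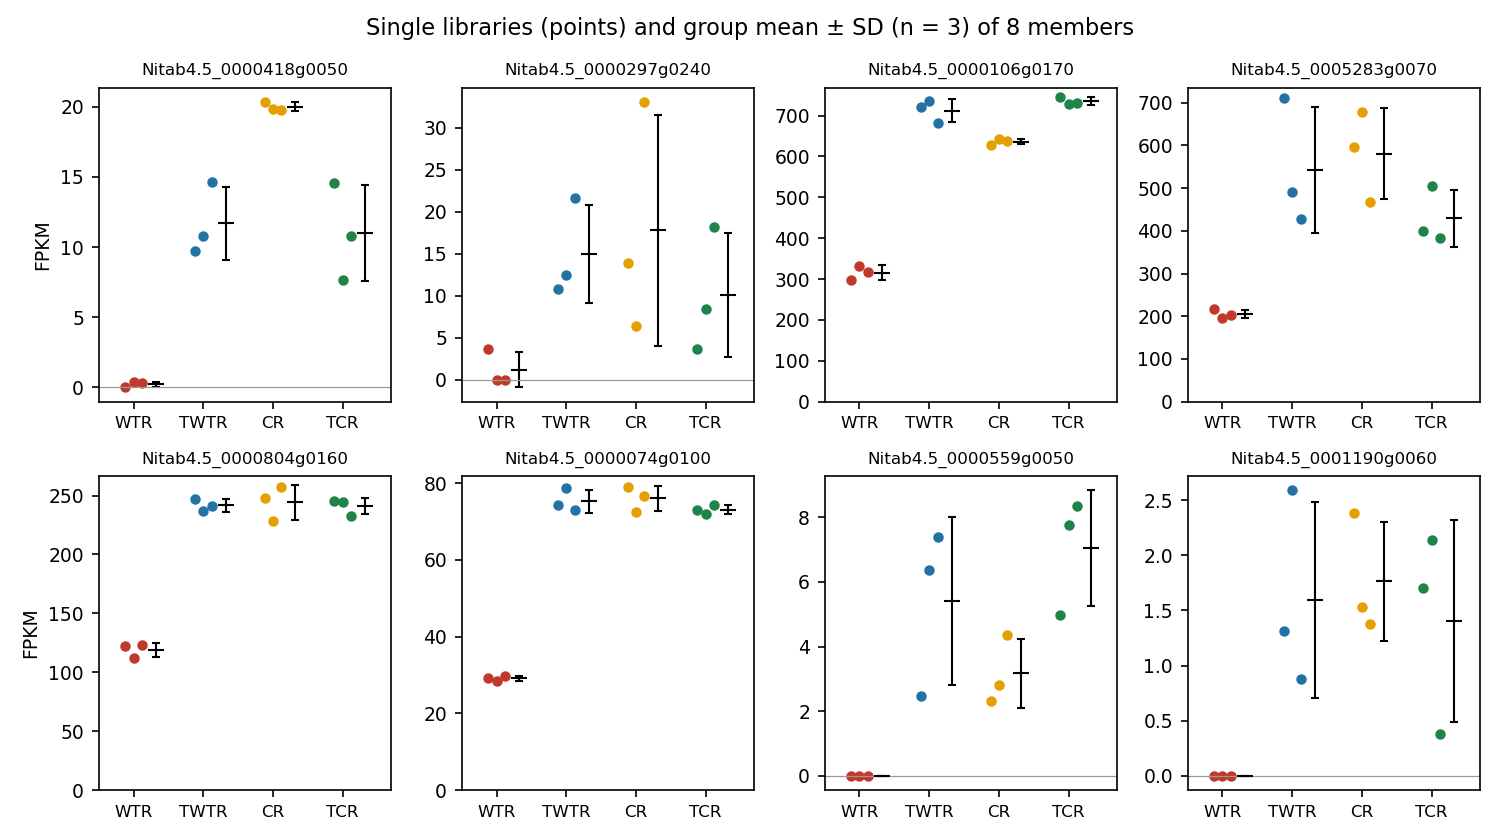
FPKM of 8 members in single libraries (coloured points, 3 per group) with the group mean ± SD in black, on linear axes: those with the largest gaps, the highest means, the closest other groups, and 0 in every WTR library. WTR is lowest in each panel, while the order of TWTR, CR and TCR differs from panel to panel.

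Models lay close to the limit on both sides. Just inside it stood Nitab4.5_0000073g0330, with a gap of 1.005 and means of 10.2 ± 1.80 FPKM in WTR, 21.4 ± 1.94 in TWTR, 31.5 ± 2.98 in CR and 33.2 ± 2.52 in TCR (SD, n = 3 each), and the abundant Nitab4.5_0000106g0170, with a gap of 1.01. Just outside stood Nitab4.5_0001401g0130, with a gap of 0.999 and means of 5.28 ± 0.365, 12.6 ± 1.21, 11.6 ± 0.831 and 19.5 ± 0.257 FPKM in the same order, and Nitab4.5_0001083g0130, with a gap of 0.987. A further 1382 models met every criterion but the gap, 116 of them with gaps from 0.75 to 1. The limit on the distance between the other groups alone kept out 32 models, among which CR was highest in 19 and TCR lowest in 16. Overlap with WTR alone kept out 19. The upper bound on the mean alone kept out 1, Nitab4.5_0002827g0020, named here after its values were seen. It was at 598 ± 52.3 FPKM in WTR, 1517 ± 83.4 in TWTR, 1340 ± 94.5 in CR and 1396 ± 30.8 in TCR (SD, n = 3 each). The size of the set also depended on the scale: a pseudocount of 0.1 gave 142 models (86 of the 92 among them), one of 5 gave 31, all members, and quantile normalization gave 58, of which 57 were members. Of the 22 named members, 6 had gaps under 1 after rescaling to TPM and 7 after quantile normalization, among them Nitab4.5_0000073g0330 (0.989 and 0.927), Nitab4.5_0000106g0170 (0.975 and 0.922) and Nitab4.5_0000804g0160 (0.988 and 0.921).

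The groups TWTR, CR and TCR were compared with one another in the fit over all models. The rule treats these groups alike, but it held each difference within 1 on the log2(FPKM + 1) scale. That limit did not fall evenly on the groups. Of the 32 models it alone kept out, CR was highest in 19 and lowest in 8. TCR was highest in 4 and lowest in 16, and TWTR highest in 9 and lowest in 8. The tested models as a whole carry no such limit, so the shares below are not compared like for like. Member counts are given with their shares and the shares of all tested models, as a description. The 3 comparisons share libraries, so their counts are not separate pieces of evidence. At least 1 comparison passed in 51 members (55.4%, beside 57.3% of all tested models) and none in 41, and all 3 passed in 5 (5.43%, beside 6.61%). CR passed as lower than both TWTR and TCR in 14 members (15.2%, beside 15.9%) and as higher than both in 7 (7.61%, beside 17.8%). TWTR passed as higher than both others in 9 members (9.78%, beside 4.26%) and as lower in 3 (3.26%, beside 4.72%). TCR passed as higher than both others in 4 members (4.35%, beside 2.11%) and as lower in 4 (4.35%, beside 2.12%). None of the differences between the shares was tested.

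Against TWTR, 14 of the 92 members rose in CR (15.2%, beside 24.4% of all tested models) and 26 fell (28.3%, beside 24.3%). The share that fell was near that of all tested models, and the share that rose was lower. Together they were 43.5%, beside 48.7% of all tested models. The median log2 difference was -0.16 over members and -0.01 over all models. Nitab4.5_0000250g0250 fell from 483, 535 and 517 FPKM in TWTR to 268, 243 and 267 in CR (log2 difference -0.98, SE 0.062, limma adjusted p 1.44e-07). It stood at 125, 112 and 120 FPKM in WTR and at 288, 277 and 261 in TCR, so that TWTR was apart from all other libraries. Nitab4.5_0001701g0210 fell from 13.6 ± 2.5 FPKM in TWTR to 6.90 ± 1.24 in CR (log2 difference -0.88, SE 0.197, limma adjusted p 0.00289), with 1.81 ± 0.700 in WTR and 7.39 ± 1.01 in TCR (SD, n = 3 each).

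In the other direction, Nitab4.5_0001574g0130 rose from 7.15, 7.99 and 7.10 FPKM in TWTR to 14.4, 14.8 and 14.2 in CR (log2 difference 0.88, SE 0.107, limma adjusted p 3.51e-05). It was at 1.87, 2.55 and 2.12 FPKM in WTR and at 7.90, 7.23 and 6.54 in TCR. CR thus lay above all other libraries, while TWTR and TCR overlapped. Nitab4.5_0004088g0040 was at 8.29, 14.32 and 19.4 FPKM in TWTR against 21.1, 28.8 and 27.3 in CR (log2 difference 0.89, SE 0.334, limma adjusted p 0.0466). It no longer passed without any CR or WTR library, without TCR replicate 1 and without TWTR replicate 1 or 2 (0.161 without TWTR replicate 1), after rescaling to TPM (0.0576) and with no filter on low values (0.0527). Its adjusted p ranged from 0.0141 to 0.161 over the alternatives.

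**Figure D4:**
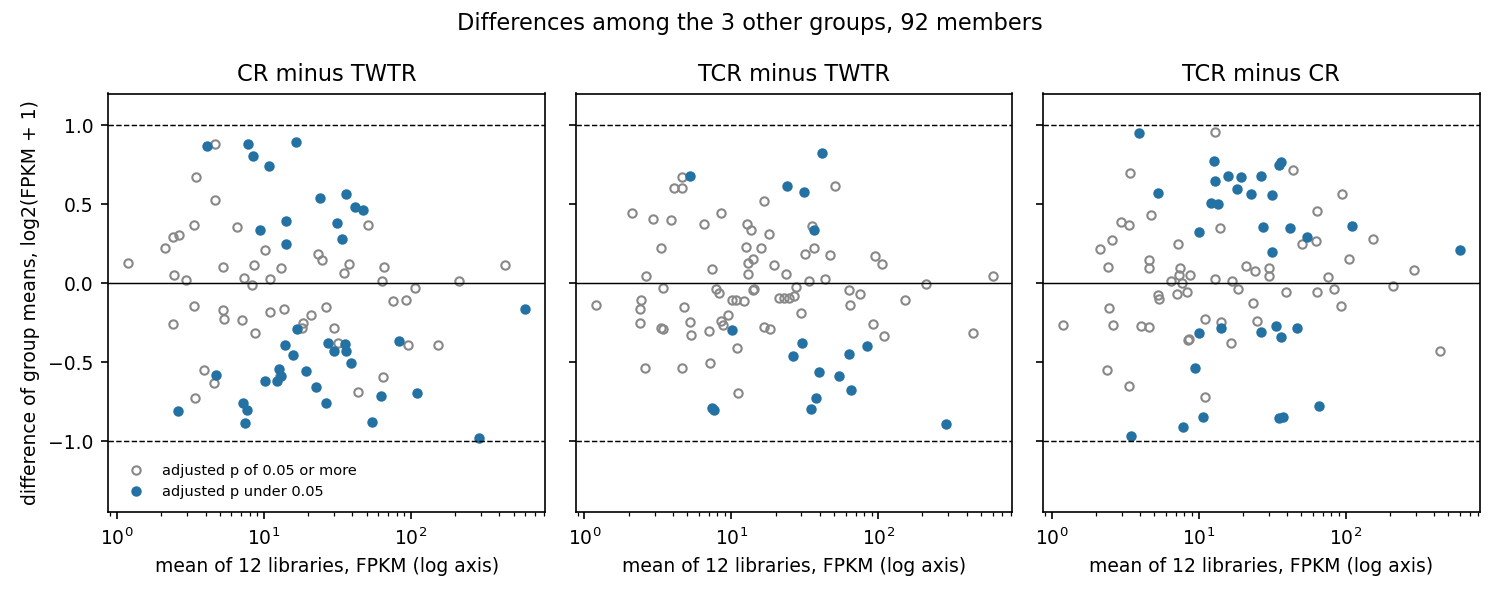
Difference of group means on the log2(FPKM + 1) scale (y axis) against the mean FPKM of 12 libraries (x axis, log scale) for the 92 members in 3 comparisons; filled points passed the limma test at an adjusted p under 0.05, and dashed lines mark the limit of 1 set by the rule. Filled points number 40, 18 and 34 from left to right. These are 43.5%, 19.6% and 37% of members, beside 48.7%, 13.7% and 41.7% of all tested models. Those of CR minus TWTR lie below 0 in 26 members (28.3%, beside 24.3%) and above in 14 (15.2%, beside 24.4%).

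TCR and TWTR differed in fewer members. In TCR, 5 members rose (5.43%, beside 7% of all tested models) and 13 fell (14.1%, beside 6.69%). Together they were 19.6%, beside 13.7% of all tested models. The median log2 difference was -0.08 over members and -0.01 over all models. Nitab4.5_0000250g0250, described above, fell here as well (log2 difference -0.89, SE 0.062, limma adjusted p 7.52e-06). Nitab4.5_0001271g0010 rose from 33.2, 39.8 and 37.4 FPKM in TWTR to 62.0, 70.2 and 65.5 in TCR (log2 difference 0.83, SE 0.077, limma adjusted p 5.08e-05). With 11.9, 11.7 and 12.9 FPKM in WTR and 49.6, 50.3 and 54.9 in CR, its 4 groups formed 4 separate steps.

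The other pair named for TCR against TWTR passed narrowly. Nitab4.5_0000602g0060 was at 12.1, 14.2 and 12.8 FPKM in TWTR against 5.51, 9.58 and 6.57 in TCR (log2 difference -0.80, SE 0.241, limma adjusted p 0.0484, from 0.00953 to 0.165 over the alternatives). The call ended without CR replicate 2, TCR replicate 1 or 3, any TWTR library or any WTR library, and under 5 other settings, of which the replicate block gave the highest adjusted p (0.0826). Nitab4.5_0000051g0300 was at 4.90, 5.06 and 5.40 FPKM in TWTR against 7.70, 10.1 and 8.66 in TCR (log2 difference 0.68, SE 0.20, limma adjusted p 0.0446, from 0.0112 to 0.150). That call ended without CR replicate 1 or 3, any TCR library, any TWTR library or WTR replicate 3, with a pseudocount of 0.1 (0.102), with no filter (0.0599) and with the replicate block (0.0785). Without TCR replicate 1 the comparison passed in 11 members, 4 higher and 7 lower.

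Against CR, 21 members rose in TCR (22.8%, beside 19.6% of all tested models) and 13 fell (14.1%, beside 22.1%). The share that rose was near that of all tested models, and the share that fell was lower. Together they were 37%, beside 41.7% of all tested models. The median log2 difference was 0.05 over members and -0.01 over all models. Nitab4.5_0000044g0100 rose from 10.2, 12.7 and 10.9 FPKM in CR to 21.4, 17.0 and 21.4 in TCR (log2 difference 0.77, SE 0.126, limma adjusted p 0.000419). It was at 2.88, 2.77 and 2.22 FPKM in WTR and at 18.4, 17.3 and 14.9 in TWTR, which overlapped with TCR. Nitab4.5_0001574g0130, with its high CR level, fell (log2 difference -0.91, SE 0.107, limma adjusted p 3.22e-05).

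The remaining pair named for TCR against CR lay at low levels. Nitab4.5_0000559g0050, at 0 in WTR, passed as higher in TCR (log2 difference 0.95, SE 0.308, limma adjusted p 0.0270, from 0.00397 to 0.0945 over the alternatives), and the call ended without CR replicate 1 or 2 or TCR replicate 2 or 3. Nitab4.5_0000252g0240 stood at 8.34, 5.05 and 6.36 FPKM in CR against 1.84, 3.56 and 3.33 in TCR (log2 difference -0.96, SE 0.280, limma adjusted p 0.0158, from 0.00661 to 0.0679), and its call ended without CR replicate 1 (0.0649) or TCR replicate 1 (0.0679). It was at 0.79, 0.25 and 0.23 FPKM in WTR and at 2.70, 5.96 and 2.99 in TWTR. TWTR overlapped with CR and TCR, whose own values did not overlap.

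By group means alone, TWTR was the highest of these 3 groups in 36 members (39.1%, beside 35.2% of all tested models), CR in 29 (31.5%, beside 41.1%) and TCR in 27 (29.3%, beside 23.7%). CR was the lowest of them in 42 members (45.7%, beside 41.2%), TCR in 29 (31.5%, beside 27.3%) and TWTR in 21 (22.8%, beside 31.5%). All 6 possible orders occurred. The commonest, TWTR above TCR above CR, held in 26 members, and CR above TWTR above TCR followed with 19. Full orders were counted over members only, so whether these counts are particular to members was not tested. Many of these orders rest on differences within the replicate spread, since 41 members passed in no comparison.

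Replicates of a group also differed in a way shared by many members. CR replicate 1 was the highest CR library in 49 of 92 members (53.3%, beside 36.7% of all tested models), and CR replicate 2 was the lowest in 42 (45.7%, beside 29.4%). WTR replicate 2 was the lowest WTR library in 50 of the 90 members with unequal WTR values (55.6%, beside 34.5%). Ties for the lowest were counted for the lower replicate number. The members were chosen on these same library values, so these shares are not independent of the choice. Without WTR replicate 2, 72 of the 92 members still met the rule. CR replicate 2 was also the library with the greater depth, and the part of depth in these shares was not tested. The median deviation from the group mean was -0.08 in both CR replicate 2 and WTR replicate 2 over members, on the log2(FPKM + 1) scale, and under 0.01 in size over all models. Within-group SDs had medians of 0.182 in WTR, 0.166 in TWTR, 0.206 in CR and 0.134 in TCR over members, beside 0.111, 0.135, 0.123 and 0.10 over all tested models. The median within-group SD of members was the larger one in every group. This comparison was not matched for level, and the rule itself set the low level of members in WTR.

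The identifiers place the members on 88 of the 3170 scaffolds in the table. A scaffold held 1 member in 85 cases, 2 members in 2 cases and 3 members in 1. Models next to a member in the order of identifiers, and not members themselves, numbered 119 among those tested. In 11 of them (9.24%) all WTR values lay below the other 9, beside 8.49% of all tested models, and their median of WTR minus the mean of the other groups was -0.03, as over all tested models (-0.03). Among non-members beside a member, the share was thus close to that of all tested models. Members beside members were left out of the first share, while the second includes all members.

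The exceptions were members with neighbouring identifiers. Scaffold 0007427 holds 2 models in the table, and both were members. Nitab4.5_0007427g0010 was at 28.0, 23.5 and 19.5 FPKM in WTR libraries, at 62.5, 119 and 92.4 in TWTR, at 80.3, 49.5 and 49.4 in CR and at 105, 66.3 and 73.7 in TCR. Nitab4.5_0007427g0020 was at 11.95, 12.1 and 13.6 FPKM in WTR libraries, at 30.5, 50.7 and 38.7 in TWTR, at 42.6, 26.3 and 29.2 in CR and at 31.2, 33.9 and 37.9 in TCR. In both, TWTR replicate 2 and CR replicate 1 were the highest of their groups.

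On scaffold 0000595, with 7 tested models of 10 listed, all WTR values lay below the other 9 in 5 models, 3 of them members. Nitab4.5_0000595g0060 was at 7.95, 7.76 and 12 FPKM in WTR libraries, at 18.8, 36.0 and 19.99 in TWTR, at 24.0, 17.5 and 18.7 in CR and at 20.03, 16.8 and 21.6 in TCR. The adjacent Nitab4.5_0000595g0070 was at 56.0, 49.3 and 37.5 FPKM in WTR libraries, at 81.4, 160 and 116 in TWTR, at 136, 93.0 and 95.1 in CR and at 104, 93.5 and 91.0 in TCR. The third member there, Nitab4.5_0000595g0100, is mentioned because it shares the scaffold and had 68.4 ± 3.97 FPKM in WTR, 209 ± 89.3 in TWTR, 152 ± 35.2 in CR and 182 ± 21.4 in TCR (SD, n = 3 each). The non-members with low WTR values were Nitab4.5_0000595g0010 and Nitab4.5_0000595g0110, with gaps of 0.789 and 0.671, named after their values were seen.

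Deviations between replicates were set side by side for the 7 members on the 3 scaffolds with more than 1 member. The rule limited these deviations, since it asked that the highest WTR value lie below the lowest of the other 9. They are therefore not independent of the choice of members. Over the 12 libraries, after subtraction of group means on the log2(FPKM + 1) scale, the 10 pairwise correlations of the 5 members on scaffolds 0000595 and 0007427 ran from 0.465 to 0.925 with a median of 0.737, while the median over all 4186 pairs of members was 0.081 (5th to 95th percentile -0.571 to 0.678). Values nearly as high joined these 5 to the pair on scaffold 0000252 (0.365 to 0.731), and that pair correlated at 0.414, so such values were not limited to the 5. The highest, 0.925, joined Nitab4.5_0000595g0070 and Nitab4.5_0007427g0010, on different scaffolds. These are descriptions of models measured in the same libraries, and whether the models are copies of one another, with shared reads, is not recorded in the table. The third scaffold with more than 1 member, 0000252, held Nitab4.5_0000252g0010 and Nitab4.5_0000252g0240 in places 1 and 18 of its 19 listed models, and no model between them had all WTR values below the other 9.

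**Figure D5:**
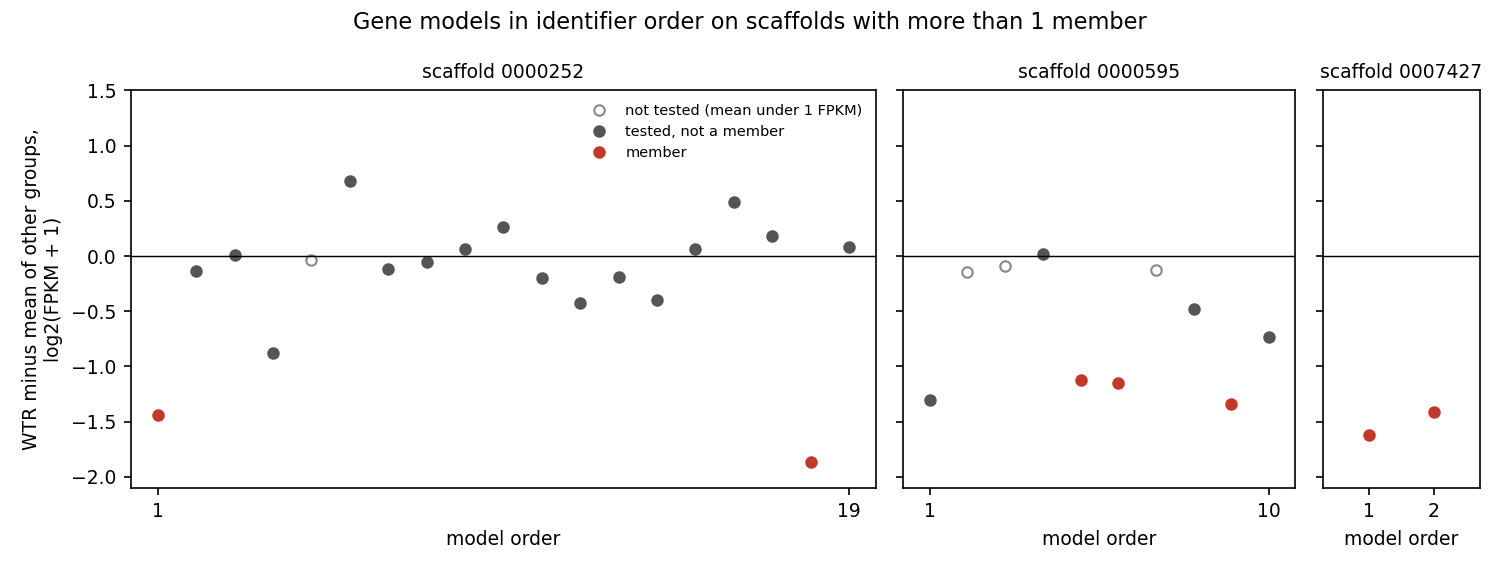
WTR group mean minus the mean of the TWTR, CR and TCR group means, on the log2(FPKM + 1) scale (y axis), for every listed gene model in identifier order (x axis, a rank and not a distance) on the 3 scaffolds with more than 1 member. Members (red) are scattered on scaffold 0000252, stand in places 5, 6 and 9 of 10 on scaffold 0000595, and make up all of scaffold 0007427.

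The same rule applied to the other groups gave 116 models lowest in CR alone, 14 lowest in TWTR alone and 1 lowest in TCR alone. With directions turned, 14 models were highest in WTR alone, 329 in CR, 32 in TWTR and 17 in TCR. WTR was thus set apart by low models (92) more often than by high ones (14), while CR was set apart by high models (329) more often than by low ones (116). These are counts from 1 set of libraries and carry no test. The count of models lowest in WTR ran from 31 with a pseudocount of 5 to 142 with one of 0.1. The other counts were not repeated on other scales.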

How the data were processed

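Polyadenylated RNA from roots was sequenced in 12 libraries, 3 per group, grouped by sample title. The authors used TRIzol extraction, per the labels' protocols, sequenced on a DNBSEQ-T7 with a stated read length of 300 bp, cleaned reads with fastp, aligned them with STAR (also in the submitters' processing notes), assembled transcripts with StringTie2 and compared them with known genes by Cuffcompare. The deposited values are FPKM, per the file headers; the program that made them, the genome build and all versions are not given in the sources used here. FPKM shifts for all models when a few transcripts dominate a library.

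Members and lists were chosen with earlier results of these data known. Values were transformed to log2(FPKM + 1), which understates changes of low models. The 19929 models with a 12-library mean of at least 1 FPKM were fitted with limma 3.58.1 in R 4.3.3 (4 group means, all 12 libraries, trend and robust options, two-sided), with Benjamini-Hochberg adjustment over all of them within each comparison and a threshold of 0.05; the procedure was tested on simulated data. DESeq2, which the series design names for calling genes, needs counts and was not used here. Relative depth came from the commonest ratio between libraries of values of models at 0 in at least 4 libraries. Counting intervals need fragment totals, which FPKM does not hold.

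The models named were those with the 2 largest gaps, the 2 highest means, the 2 smallest gaps and the 2 nearest models outside, the 2 smallest spans of the other groups, the 2 largest differences in each direction per comparison among those passing, the 2 highest means among members at 0 in WTR, and members with adjacent identifiers. Alternatives were other pseudocounts, filters, scalings, bounds of the rule, fits of 2 groups, a replicate term and leaving out each library.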

Additional observations from a re-analysis of the deposited data

How the results depend on the processing

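The number of models lowest in WTR alone, 92, became 142 with a pseudocount of 0.1, 31 with a pseudocount of 5 and 58 with quantile normalization. It was between 74 and 124 with TPM, median-of-ratios scaling, other filters on the mean, no upper bound and no limit between the other groups. On leaving out each library it ran from 86 to 108, with 72 (without WTR replicate 2) to 91 of the 92 members kept. Members passing in CR minus TWTR (40) ran from 32 to 41 on leaving out libraries, those in TCR minus CR (34) from 24 to 36, and those in TCR minus TWTR (18) from 11, without TCR replicate 1, to 19. Under the other settings these counts stayed within 1.5 times. No named difference changed direction in 250 refits, of which 43 ended a call. Many of these refits could not change the difference itself, only its adjusted p. Among them were those without a library of an uninvolved group, with other filters, with the replicate block and with 2 groups alone. Most refits of gaps left out 1 library. That shifts a group mean by only part of the library's deviation, so it could seldom exceed the replicate spread. Gaps of the 24 named models moved by less than this spread in 378 of 408 refits. The rest were with the pseudocounts of 0.1 (11) and 5 (15) and quantile normalization (4), and none came from leaving out a library. Even so, of the 22 members among the named models, gaps fell under the limit of 1 in 6 with TPM and 6 with median-of-ratios scaling. They did so in 7 with quantile normalization, in 12 with a pseudocount of 5 and in 9 on leaving out at least 1 library. Replicate numbers did not pair the libraries: correlations of same-numbered deviations ran from -0.089 to 0.099, and 0 of 18 exceeded 0.1. With the replicate block the counts were 40 in CR minus TWTR, 16 in TCR minus TWTR and 31 in TCR minus CR. Absolute depth is unknown, so zeros and values near 0 in WTR have no counting limits.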
